A study of Homo sapiens with 3 samples.

Results

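S100 proteins are small calcium-binding proteins that carry a pair of EF-hand motifs, act mostly as dimers inside the cell, and in some cases are secreted and bind receptors such as RAGE. In the intestine S100P and S100A4 are studied as genes of colorectal cancer progression, whereas S100A8 and S100A9 form calprotectin, a protein of neutrophils that inflamed epithelium can also make. The S100 genes examined here were S100A2, S100A4, S100A6, S100A8, S100A9, S100A10, S100A11, S100A14, S100A16 and S100P, which are 10 of the 60504 genes in the deposited table and were taken by gene symbol.

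RNA-Seq was performed on the colorectal cancer line DLD1, with 1 library from DLD1 control cells (wild type) and 2 from BEX2-/- DLD1 cells. The BEX2-/- libraries came from KO1 and KO2, here called clone 1 and clone 2, which were made by CRISPR/Cas9 editing of BEX2 and screened by sequencing. The labels name no treatment. They do not say whether KO1 and KO2 are separate clones, which the names used here assume. Each clone gave a single library, so a difference between clones and a difference between cultures cannot be told apart. Levels are FPKM, the fragments of a gene divided by its length and by the library size. The length that fitted most values was that of all annotated exons merged. Comparisons between genes depend on that length, whereas ratios of a gene between libraries do not.

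The library size behind the FPKM values was 47458850 reads in the control library, against 35593989 in clone 1 and 47722374 in clone 2. BEX2 was listed at 0 in all 3 libraries, so its mRNA gave no check of the labels. The 7 epithelial markers examined (EPCAM, CDH1, KRT8, KRT18, KRT19, VIL1 and CDX2) all passed the filter of a mean of at least 1 FPKM, with VIL1 at 0.221 FPKM in clone 2. With a single control library there was no spread among control cells. The fold changes below therefore compare libraries, and their 95% intervals (exact Clopper-Pearson, from whole reads) cover counting error only. In these bulk libraries, fewer cells that express a gene and less RNA per cell cannot be told apart.

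Of the 10 genes, 8 passed the filter. S100A8 and S100A9 did not, and they are given by their reads. Among these 8, S100P differed most between the libraries, and it was higher in clone 1 and lower in clone 2 than in DLD1 control cells. S100A10 moved in the same way by less. S100A2, S100A4, S100A6, S100A11 and S100A16 stayed within 1.5-fold of the control in both clones, and no member was at least 2-fold higher, or at least 2-fold lower, in both clones at once.

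The stretches upstream of the transcription start are shown for the genes that set the libraries apart, S100P, S100A10, S100A8 and S100A9. They hold the last 120 bases before the start given by RefSeq on GRCh38.p14, 5′ to 3′ on the strand of the gene. Capitals mark the letters TATAAA, the core of a TATA box. The stretches are chr4:6693758-6693877 (plus strand) for S100P, chr1:151993860-151993979 (minus strand) for S100A10, chr1:153391074-153391193 (minus strand) for S100A8 and chr1:153357734-153357853 (plus strand) for S100A9. RefSeq gave 3 starts for S100A8, and the stretch before the second of them is printed.
S100P: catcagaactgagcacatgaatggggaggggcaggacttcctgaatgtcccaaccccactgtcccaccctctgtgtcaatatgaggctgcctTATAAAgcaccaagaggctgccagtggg
S100A10: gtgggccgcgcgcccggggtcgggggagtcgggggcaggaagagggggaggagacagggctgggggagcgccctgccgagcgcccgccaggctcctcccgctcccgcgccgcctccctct
S100A8: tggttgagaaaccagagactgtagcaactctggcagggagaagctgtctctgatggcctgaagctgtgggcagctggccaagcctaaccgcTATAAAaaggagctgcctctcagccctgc
S100A9: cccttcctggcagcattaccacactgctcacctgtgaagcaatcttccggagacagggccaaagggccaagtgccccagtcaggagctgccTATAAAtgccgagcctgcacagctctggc

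All 10 genes had an entry in the RefSeq promoter table, 14 windows in all. In the 250 bases before the start, on either strand, TATAAA was found in 5 of the 14 windows, those of 4 genes (S100P, S100A4, S100A8 and S100A9), against 10.7% of 35116 windows of the same length in the whole table. It lay between -31 and -23 bases from the start in S100P, S100A4, S100A9 and the printed window of S100A8. The remaining window with TATAAA was also of S100A8, overlaps the printed one and holds the same site. GGGCGG, a GC box, was found in 5 of the 14 windows, of 5 genes (S100A6, S100A9, S100A10, S100A11 and S100A16), against 42.6% of windows. TGANTCA, the AP-1 motif, was found in 1 of the 14, for S100A2 (6.57% of all windows), and the NF-kappaB motif in 1 of the 14, for S100A14 (5.21% of all windows). These are matches of letters, and no binding was measured.

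The members covered a wide range of levels. S100A6, also known as calcyclin, was the most abundant in every library, at 419 FPKM in the control library, against 524 in clone 1 and 471 in clone 2. It ranked 65, 45 and 55 among all genes of the table. In DLD1 control cells the order below it was S100A10 (308 FPKM), S100A14 (205), S100A11 (182), S100A16 (109), S100P (43.8), S100A4 (13.6) and S100A2 (1.55). Clone 1 kept this order, and in clone 2 S100A11 and S100A14 stood above S100A10. In clone 1 S100A10 reached 514 FPKM, close to S100A6, with a ratio of S100A6 to S100A10 of 1.02, whereas that ratio was 1.36 in the control and 2.51 in clone 2. In clone 2, S100A11 (190 FPKM), S100A14 (189) and S100A10 (187) could not be ordered, since their counting intervals of 186 to 195, 186 to 193 and 184 to 191 FPKM overlapped. Together the 10 genes made up 0.468% of the FPKM sum in the control library, against 0.693% in clone 1 and 0.449% in clone 2.

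S100P (ENSG00000163993), a ligand of RAGE that also binds ezrin, is the only member outside the cluster on chromosome 1 and lies on the plus strand of chromosome 4, from 6693069 to 6697170 in GENCODE 29 on GRCh38. It was at 43.8 FPKM in the control library, against 122 in clone 1 and 13.2 in clone 2, from 2660, 5542 and 808 reads. The control thus lay between the clones. S100P was 2.78-fold higher in clone 1 than in the control (95% interval 2.65 to 2.91), and in clone 2 its level was 0.302 of the control (0.279 to 0.327). Clone 1 exceeded clone 2 by 9.20-fold (8.54 to 9.91). The mean of the clones was 67.4 ± 76.7 FPKM (SD, n = 2), a spread larger than the distance of that mean from the control value. Its rank among all genes moved from 806 in the control to 224 in clone 1 and 2951 in clone 2.

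On the scale of log2(FPKM + 1), the ratio of S100P to the control was 1.45 in clone 1, against -1.65 in clone 2. It was the only one of the 8 members past the 2-fold threshold in clone 1, where 1.06% of the 11675 genes that passed the filter were at least 2-fold higher, and the only one past it in clone 2, where 0.737% were at least 2-fold lower. None of the 8 was at least 2-fold lower in clone 1 (0.959% of all genes) or at least 2-fold higher in clone 2 (1.33%). Opposite changes of this size in the clones were seen in 0.300% of all genes. The same control library enters both ratios.

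S100A10 (ENSG00000197747; chromosome 1, 151982915 to 151994390, minus strand), the partner of annexin A2 and a member that needs no calcium for its function, was the second of the variable members. It was at 308 FPKM in the control library, against 514 in clone 1 and 187 in clone 2. Again the control lay between the clones. The level in clone 1 was 1.67-fold that of the control (1.64 to 1.70) and in clone 2 it was 0.608 of it (0.596 to 0.621), so that neither clone reached 2-fold. Between the clones the difference was 2.74-fold (2.69 to 2.80), with a mean of 351 ± 231 FPKM (SD, n = 2).

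S100P and S100A10 were the 2 members at least 2-fold lower in clone 2 than in clone 1, which 1.68% of all genes were. No member that passed the filter was at least 2-fold higher in clone 2 than in clone 1 (2.51% of all genes). The median log2 ratio of the 8 members was 0.39 in clone 1, -0.13 in clone 2 and -0.45 for clone 2 against clone 1. Over all genes past the filter these medians were 0.04, -0.01 and -0.05. Of the 8 members, 7 exceeded the control in clone 1, and clone 1 exceeded clone 2 in 7, with S100A11 as the exception in each case. Over all genes past the filter, 56.2% were higher in clone 1 than in the control and 42.2% higher in clone 2 than in clone 1. The first count rests in part on small ratios, since S100A4 turned from 0.01 to -0.04 with median-ratio scaling and S100A11 turned just above the control with scaling to TPM.

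S100A14 and S100A16 are neighbouring genes of epithelial S100 proteins, at 153614255 to 153616986 and 153606886 to 153613145 of chromosome 1, and both were highest in clone 1. S100A14 (ENSG00000189334) was at 205 FPKM in the control library, against 318 in clone 1 and 189 in clone 2. Its level in clone 1 was 1.55-fold that of the control (1.51 to 1.59) and in clone 2 it was 0.921 of it (0.898 to 0.945). S100A16 (ENSG00000188643) was at 109, 150 and 106 FPKM in the control, clone 1 and clone 2. In clone 2 these genes stayed near the control, so that the difference lay in clone 1. The ratio of S100A14 to S100A16 was 1.89 in the control library, against 2.11 in clone 1 and 1.79 in clone 2.

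The remaining abundant members differed little between the libraries. S100A6 (ENSG00000197956, 153534599 to 153536244) was higher than the control in both clones, by 1.25-fold (1.23 to 1.28) in clone 1 and 1.12-fold (1.10 to 1.15) in clone 2, with a mean of 497 ± 37.6 FPKM (SD, n = 2). No other member was so in FPKM as deposited, but with scaling to TPM S100A16 and S100A11 were as well. An annotated antisense gene shares 23 exonic bases with it and was at 0.794, 1.59 and 2.01 FPKM in the control, clone 1 and clone 2. S100A11 (ENSG00000163191, 152032506 to 152047907), which binds annexin A1, was at 182 FPKM in the control library, against 175 in clone 1 and 190 in clone 2. It was the steadiest of the members, with a mean of 183 ± 10.9 FPKM (SD, n = 2) in the clones.

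S100A4 (ENSG00000196154), a partner of non-muscle myosin known for its role in cell motility and metastasis, was at 13.6 FPKM in the control library, against 13.7 in clone 1 and 11.4 in clone 2, from 660, 499 and 558 reads. The interval of its ratio included 1 in clone 1 (0.896 to 1.13) and was 0.750 to 0.943 in clone 2. The gene runs from 153543613 to 153550136 on chromosome 1 and spans S100A3, with which it shares no exonic base. S100A2 (ENSG00000196754, 153561108 to 153567890), an S100 gene of squamous epithelia, was low, at 1.55 FPKM in the control, 2.03 in clone 1 and 1.30 in clone 2. From 115 reads in the control, 113 in clone 1 and 97 in clone 2, clone 1 was 1.31-fold the control (1.00 to 1.71) and clone 2 was 0.640 of clone 1 (0.483 to 0.847). A difference between clone 2 and the control was not detectable at this depth (0.839, interval 0.634 to 1.11).

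S100A8 (ENSG00000143546, 153390032 to 153391188, minus strand) and S100A9 (ENSG00000163220, 153357854 to 153361027, plus strand) were listed at 0 in DLD1 control cells and in clone 1. In clone 2, S100A8 had 17 reads, or 0.354 FPKM (0.206 to 0.567), and S100A9 had 24 reads, or 0.872 FPKM (0.558 to 1.30). With no read counted, up to 3 reads per library could have been missed, which in the control would be 0.0628 FPKM for S100A8 and 0.110 for S100A9. Against that limit, with the reads of clone 2 taken as counted, S100A8 was at least 5.64-fold higher in clone 2 than in the control and at least 4.23-fold higher than in clone 1. S100A9 was at least 7.96-fold and at least 5.97-fold higher on the same terms. With the counting error of clone 2 included, the exact 95% lower limits were 4.10-fold and 3.08-fold for S100A8, and 5.99-fold and 4.49-fold for S100A9. In clone 2 the FPKM of S100A9 was 2.46 times that of S100A8. This ratio rests on 24 against 17 reads and on merged exon lengths of 577 and 1006 bases. No interval was computed for it. Both genes remained under 1 FPKM in every library. Of 54834 genes with whole reads, 8 (0.0146%) had at least 17 reads in clone 2 and 0 in both other libraries, these genes included. The same count was 3 for DLD1 control cells and 4 for clone 1, and the limit of 17 was set after the values were seen.

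S100A8 and S100A9 are also genes of myeloid cells, so 10 leukocyte markers were examined beside them. None of the 10 passed the filter, and 5 of 10 (PTPRC, CSF3R, ELANE, FCGR3B and LYZ) were listed at 0 in all 3 libraries, clone 2 included. Summed over the 10 markers, the level was 1.07 FPKM in the control library, against 0.899 in clone 1 and 1.05 in clone 2. ITGAM was the only marker of the 10 highest in clone 2, at 0.0260 FPKM in the control, 0.00992 in clone 1 and 0.311 in clone 2. Its part in the result was not tested.

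BEX2-/- DLD1 cells were compared with DLD1 control cells by limma on log2(FPKM + 1) over all 11675 genes, in which the spread came from the clones and the lone control was assumed to vary like them. None of the 8 members had a Benjamini-Hochberg adjusted p under 0.05, as for 0% of all genes. An unadjusted p under 0.05 was found for 0 of 8 members and 139 of 11675 genes. For S100P the log2 difference was -0.10 with a standard error of 1.44 (adjusted p from limma 1.00), and for S100A10 it was 0.01 with a standard error of 0.69. For S100A6, where the clones lay on the same side of the control, the difference was 0.24 with a standard error of 0.17. At least 2-fold changes in one direction in both clones were counted for 0 of 8 members and 0.325% of all genes.

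The patterns nearest to S100P and S100A10 were searched among all genes past the filter, by the distance between pairs of log2 ratios (clone 1 and clone 2, each to the control) and thus over 3 libraries. For S100P the nearest genes were PRR15L (distance 0.245), TXNIP (0.311) and VIL1 (0.313). VIL1, the gene of the microvillus protein villin, was at 3.61 FPKM in the control library, against 13.2 in clone 1 and 0.221 in clone 2, which was a wider range than that of S100P. TXNIP was at 17.5, 46.4 and 6.21 FPKM, and PRR15L at 32.6, 77.1 and 9.15 FPKM. For S100A10 the nearest were AP003068.4 (distance 0.0598), UNC13B (0.0842) and RNF223 (0.0981). AP003068.4 was at 2.05, 4.10 and 0.784 FPKM in the control, clone 1 and clone 2, and UNC13B at 6.66, 12.5 and 3.65 FPKM. The pseudocount of 1 FPKM shrinks the ratios of genes at such low levels, so these distances depend on it. By FPKM alone, VIL1 in clone 2 was 0.0613 of the control, against 0.302 for S100P. With 3 libraries such likeness is a description and carries no test.

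The rest of the S100 family was mostly silent. Of 10 further S100 genes, 2 passed the filter (S100A5 and S100A13), and S100A7A, S100A12, S100B and S100G were listed at 0 in every library. S100A5 was at 3.25 FPKM in the control library, against 0.0717 in clone 1 and 4.46 in clone 2, from 121, 2 and 167 reads. Clone 1 thus held the fewest reads of S100A5, and its level was 0.0220 of the control (0.00264 to 0.0813). S100A3, which lies inside the span of S100A4 and did not pass the filter, had 39 reads in the control, 9 in clone 1 and 59 in clone 2. This direction is the reverse of that of S100P and S100A10. S100A13 was at 5.77 FPKM in the control, 4.50 in clone 1 and 4.72 in clone 2, lower in both clones by less than 2-fold. Its exons share 235 bases with S100A1 on the opposite strand, and whether strand was used in counting is not given in the sources used here.

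Of the 10 members, 9 lie on chromosome 1 within 1634 kb, in the region that also holds the genes of the epidermal cornified envelope. The 210 genes annotated within 1 Mb of this stretch included 58 past the filter, of which 51 were not members. Their median log2 ratio was 0.05 in clone 1, 0.05 in clone 2 and 0.04 for clone 2 against clone 1. Of the 51, 2 differed at least 2-fold in any pair of libraries, S100A5 and PRR9. Both were at least 2-fold higher in clone 2 than in clone 1, as were 2.51% of all genes past the filter. None of the 51 was at least 2-fold lower in that comparison (1.68% of all genes). PRR9, a gene of the cornified envelope region, was at 2.79 FPKM in the control, 0.594 in clone 1 and 13.9 in clone 2. S100A11, the next member along the chromosome from S100A10, was at a log2 ratio of 0.12 for clone 2 against clone 1.

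S100 proteins act through partners, and annexins with AHNAK, a large scaffold protein that joins the complex of S100A10 and annexin A2, formed the first list. Of 13 genes, 10 passed the filter, and none was at least 2-fold different from the control in either clone. Of all genes past the filter, 1.06% were at least 2-fold higher and 0.959% lower in clone 1. In clone 2 these shares were 1.33% and 0.737%. ANXA2 was at 176 FPKM in the control library, against 185 in clone 1 and 194 in clone 2. The ratio of S100A10 to ANXA2 was therefore 1.75 in the control, 2.78 in clone 1 and 0.967 in clone 2. AHNAK was at 24.8, 47.6 and 43.3 FPKM, higher than the control in both clones by 1.92-fold (1.89 to 1.96) and 1.75-fold (1.72 to 1.78). It was the only gene of the list with an unadjusted limma p under 0.05, and its adjusted p from limma was 1.00. ANXA1 was at 40.9, 27.5 and 59.7 FPKM, and ANXA6 at 8.80, 4.50 and 11.3 FPKM, with the control between the clones in both cases. ANXA1 and ANXA6 were the 2 of 10 genes of the list at least 2-fold higher in clone 2 than in clone 1, as were 2.51% of all genes.

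The second list held 10 genes of further partners and receptors. TLR4, a receptor of S100A8 and S100A9, was listed at 0 in all 3 libraries, and the other 9 genes passed the filter. AGER, which encodes RAGE, was at 6.10 FPKM in the control library, against 6.61 in clone 1 and 4.82 in clone 2. EZR, the gene of ezrin, was at 164, 186 and 192 FPKM, and CACYBP, the gene of a protein that binds S100A6, at 43.9, 45.8 and 31.1 FPKM. MYH9, the gene of the myosin heavy chain that S100A4 binds, was at 78.2, 80.8 and 104 FPKM. None of the 9 differed at least 2-fold in any pair of libraries. Of all genes past the filter, 2.51% were at least 2-fold higher and 1.68% lower in clone 2 than in clone 1. A count of 0 in 9 genes thus does not set this list apart. None of the 9 was called by limma, as for 0% of all genes (0 with an unadjusted p under 0.05). The median log2 ratio of these 9 genes was 0.09 in clone 1 and -0.04 in clone 2.

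**Figure D1:**
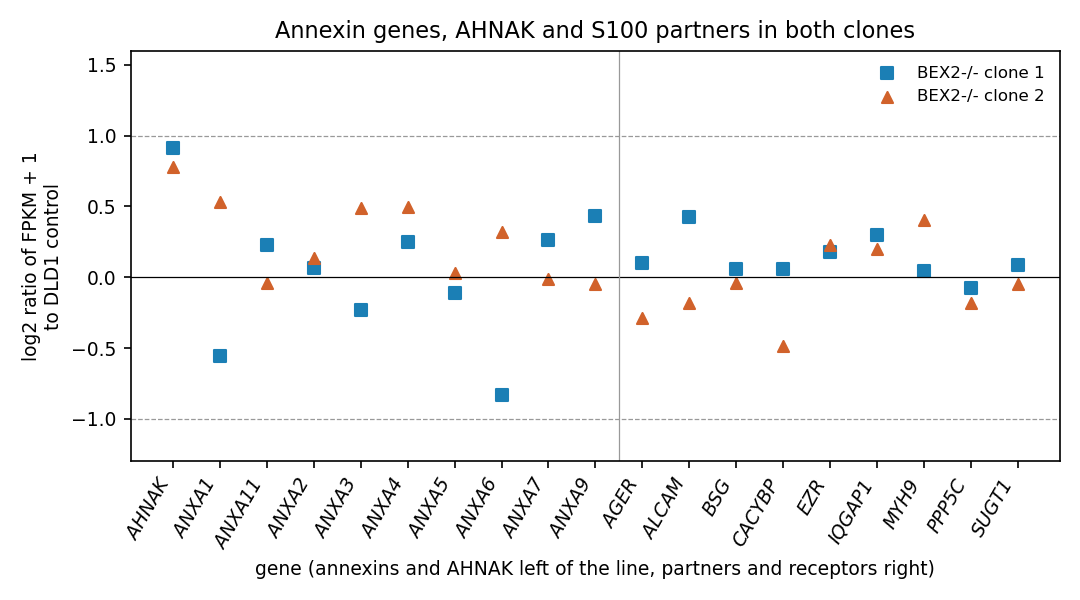
Log2 ratio of FPKM + 1 to DLD1 control cells in clone 1 (squares) and clone 2 (triangles) for 10 genes of the annexin and AHNAK list (left of the line) and 9 genes of S100 partners and receptors (right) that passed the filter; dashed lines mark 2-fold. AHNAK lies at 0.92 and 0.78, ANXA2 at 0.07 and 0.14, and ANXA6 at -0.83 and 0.32.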

How the data were processed

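Libraries (TruSeq RNA Sample Prep Kit) were sequenced, and the authors deposited 1 table, in FPKM, for all 3 of them. The submitters' processing notes name Trim Galore 0.3.7, STAR 2.5, Cufflinks 2.2.1, DESeq 1.22.1 and the build hg19, without their roles. The gene annotation is not given in the sources used here. Of 60504 identifiers, 56996 were found in GENCODE 29 (GRCh38), whose coordinates are printed, and 3508 were not.

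FPKM multiplied by merged exon length gave whole reads (within 0.02) for between 92.9% and 93.1% of values under 1000 reads and for all members, which set the library sizes. Since FPKM values are no counts, DESeq was not used. Libraries were grouped by genotype label. Ratios were taken as log2(FPKM + 1), a gene passed the filter if the control value and the average of both clones had a mean of at least 1 FPKM, and changes were called from 2-fold. limma 3.58.1 (R 4.3.3, intensity trend) gave the test of genotype, which with 1 control measures only the spread between clones, and was tested on simulated data. Ratios and intervals were computed in Python 3.11.15 (scipy 1.17.1, numpy 2.4.6, pandas 2.3.3), and plots with matplotlib 3.10.9. Promoters came from RefSeq (GRCh38.p14).

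The members, lists and thresholds were chosen with earlier results of these data known. Every member was named. Genes of the lists could be named if past the filter, and those described in the text were picked from them after their values were seen. Also named were neighbours within 1 Mb if 2-fold different in any pair of libraries, and the 3 nearest genes by pattern for each member past the filter that was 2-fold different in any pair. S100A3, ITGAM and the genes at 0 were named after their values were seen. Alternatives tried were a 1.5-fold threshold, limma without the trend, omission of a clone, TPM or median-ratio scaling, a filter at 5 FPKM or none, and a pseudocount of 0.1 FPKM.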

Additional observations from a re-analysis of the deposited data

How the results depend on the processing

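Of the 72 alternative values computed for counts and medians over the members, 66 stayed within 1.5 times the main count or within the spread of the clones. Part of this tally could not come out otherwise. A median with a clone left out is the median of the other clone, and so an end of that spread. limma called 0 of all genes in every setting, so its counts could not set the members apart. With a 1.5-fold threshold, 3 members passed in clone 1 and 2 in clone 2. No share of all genes is given beside these counts or those of the next setting, so they cannot be set against a background. Without a pseudocount or a filter, and with values under 3 reads set to 3 reads (an alternative chosen after the data were seen), 3 members passed in clone 2 and 4 between the clones, since S100A8 and S100A9 then entered. With either clone left out, 1 member passed the 2-fold threshold against the control (lowest 1, highest 1) where both clones together gave 0, and it was S100P, higher in clone 1 and lower in clone 2. The median log2 ratio over both clones was 0.03, and -0.13 to 0.39 with a clone left out. For the 8 members, none of the 165 alternative log2 ratios changed its side of the threshold or, once past it, its direction. Part of these could not change, since a different filter leaves the ratio of a gene as it was. limma called 0 members under all 8 alternatives computed, but omission of a clone left no residual degrees of freedom and gave no test. Scaling to TPM moved log2 ratios by up to 0.07 before the pseudocount. No paired analysis was possible because the groups share fewer than 2 replicate numbers. Depth limits S100A2, S100A8 and S100A9, and recovered reads carry counting error only.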
